A study of Mus musculus with 12 samples.

Results

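The sarcomere and Z-disc genes described here are 39 named genes that encode the contractile filaments of the heart muscle cell and the structures that anchor them. They were taken by gene symbol from the deposited table of estimated counts, where all 39 matched a row among 29564 rows. By the place of their products, 9 belong to the thick filament, 12 to the thin filament, 14 to the Z-disc, 3 to the M-band and 1 is titin. Bulk RNA sequencing was carried out on left ventricle from 12 wild-type C57BL6 mice (C57BL/6J in the study's methods) in 3 groups of 4, with 1 library per mouse. Control-Veh mice were non-failing animals given vehicle. HFpEF-Veh mice had been brought to heart failure with preserved ejection fraction (HFpEF) with a high-fat diet and L-NAME, an inhibitor of nitric oxide synthase, and were given the same vehicle. HFpEF-TYA-018 mice were made in the same way and received by mouth 15 mg/kg of TYA-018, which inhibits HDAC6, a deacetylase of the cytoplasm. The series title and the study describe hearts taken after a single dose, whereas the treatment text in the labels describes daily dosing for weeks, so the exposure is given here as a dose without a duration. The labels state no age, sex or batch, and the study's methods describe male mice. Animal numbers of each group lie together, and the labels do not say whether they follow the order of processing. If they did, that order and group could not be told apart.

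The sarcomere is the repeating contractile unit of striated muscle. Myosin thick filaments pull on actin thin filaments, troponin and tropomyosin make that pull depend on calcium, and myosin-binding protein C tunes it. Thin filaments are anchored in the Z-disc, thick filaments are held together at the M-band, and titin spans from one to the other as a molecular spring. The ventricle of an adult mouse relies on Myh6, Myl2, Myl3, Tnni3 and Actc1, whereas Myh7, Myl4, Myl7, Tnni1 and Acta1 are the fetal, atrial or skeletal counterparts, some of which are known to return in a stressed ventricle.

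Counts summed to between 61177646 and 83928922 per library. Mitochondrially encoded genes took 43.1% to 47.7% of them in the HFpEF-Veh libraries, against 37.0% to 40.6% in the control and 35.4% to 41.2% in the HFpEF-TYA-018 libraries. The 39 genes together held 5.13% to 6.15% of counts in the control, 4.05% to 4.41% in the HFpEF-Veh and 4.75% to 5.97% in the HFpEF-TYA-018 libraries, so the HFpEF-Veh libraries lay below all others. Without the mitochondrial genes in the total, the ranges were 8.62% to 9.76%, 7.22% to 8.12% and 8.09% to 9.24%, and the highest HFpEF-Veh library then overlapped with the lowest dosed one. Of 9 ventricular cardiomyocyte markers 8 were detected and Slc8a1 was listed at 0 in every library, and the atrial marker Sln reached at most 0.0678 CPM (the counts-per-million level) in any library. In 1 library, HFpEF-Veh library 2 (V2), the fast skeletal fibre genes Myh4, Actn3, Tnnt3 and Tnnc2 stood above all other libraries, with Myh4 at 9.94 CPM where the others reached at most 0.243.

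Levels are given as CPM after scaling by the trimmed mean of M-values, in the order of libraries 1 to 4 of each group (C1 to C4 for Control-Veh, V1 to V4 for HFpEF-Veh and T1 to T4 for HFpEF-TYA-018). Fold changes come from edgeR's quasi-likelihood fit over all 12 libraries, with their standard errors, and calls were made where the p adjusted by Benjamini-Hochberg over the 14333 tested genes lay under 0.05. Of the 39 genes 38 passed the filter on low counts, and Tnni1 did not. Below, the model stands for HFpEF-Veh against Control-Veh and the dose for HFpEF-TYA-018 against HFpEF-Veh, an error after a log2 fold change is its SE, and one after a level is an SD over 4 libraries. The 3 comparisons share libraries by pairs and are therefore not independent of each other.

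In HFpEF-Veh hearts the contractile genes were mostly lower than in control hearts. Of 38 tested, 19 were called, where 21.2% of all tested genes were called in either direction. The 16 that fell included the adult myosin heavy chain Myh6, both ventricular myosin light chains, all 3 adult troponin subunits, titin, telethonin and myomesin 2, and they compare with 10.3% of all tested genes called lower. The 3 that rose were the actins Acta1 and Actc1 and the ankyrin repeat gene Ankrd23, compared with 10.9% of all tested genes called higher. The genes of the list were chosen with earlier results of these data known. Here and below, the shares therefore describe the list and do not test it. Over the 38 genes the median log2 fold change was -0.26, with 29 values below 0, whereas the median over all tested genes was -0.01. In a bulk sample, fewer cardiomyocytes and less RNA of these genes per cardiomyocyte cannot be told apart.

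After TYA-018 genes of the same structures were higher than in vehicle-treated HFpEF hearts. Of the 38 genes 11 were called, all of them higher, where 19.3% of all tested genes were called in either direction, 8.93% higher and 10.4% lower. They were Myh6, Myl3, Mylk3, Mybpc3, Tpm1, Tmod1, Tmod4, Lmod3, Des, Actn2 and Myom2. The median log2 fold change over the 38 genes was 0.18, with 30 values above 0, and that over all tested genes was 0.00. Against control hearts the dosed HFpEF hearts showed 3 calls, with Actc1 and Ankrd23 higher and Tnnt2 lower, where 5.86% of all tested genes were called, 3.12% higher and 2.74% lower, and the median log2 fold change of the 38 genes was -0.01. This count of 3 moved with the method, since DESeq2 called 10 genes (3 higher and 7 lower), limma on log2(TPM + 1) kept 0 of the 3, and leaving out 1 library gave 1 to 6 calls (6 without C1).

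**Figure D1:**
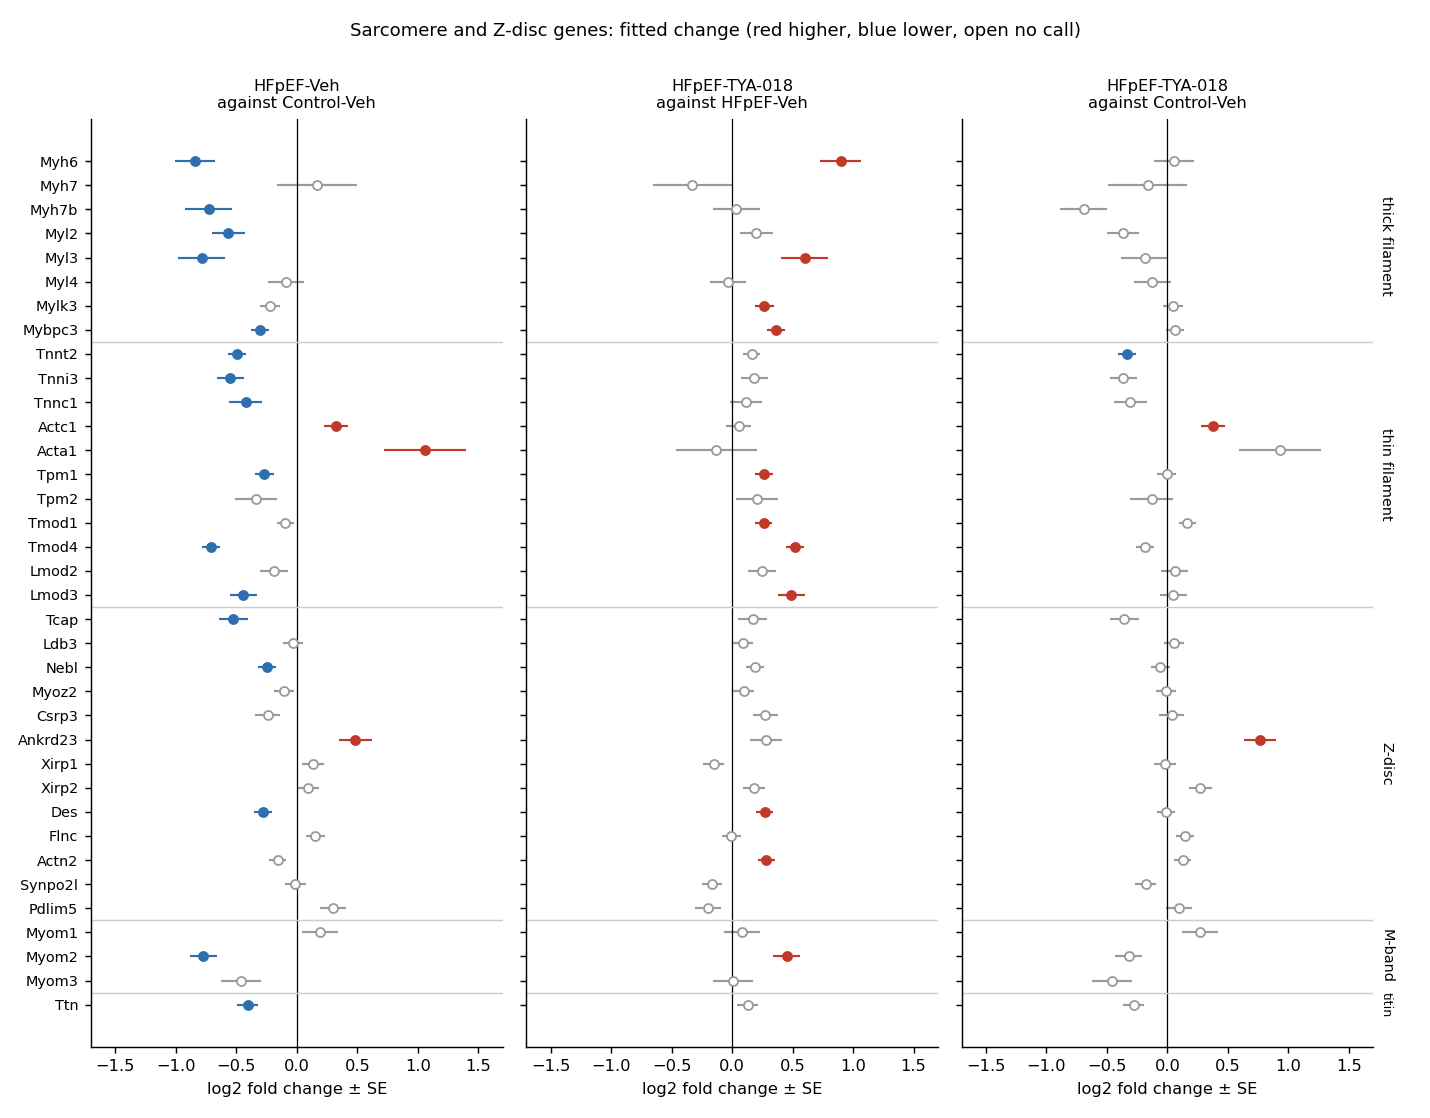
Fitted log2 fold change (horizontal axis, with SE) of 36 of the 39 genes in the 3 comparisons, ordered by structure. Filled red points were called higher, filled blue points lower and open grey points were not called. In HFpEF-Veh against Control-Veh 16 genes are blue and 3 red, in HFpEF-TYA-018 against HFpEF-Veh 11 are red and none blue. Ankrd1, Myl7 and Tnni1, at or near 0 in several libraries, are not drawn.

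The calls rested in part on how the estimated counts were modelled. The deposited effective lengths differed between groups, by a median log2 of 0.08 over all tested genes in the model and -0.15 with the dose. With the deposited effective lengths as an offset, 10 of the 19 model calls were kept (Myh6, Myl2, Myl3, Tnnt2, Tnni3, Tmod4, Lmod3, Ankrd23, Myom2 and Ttn), and 3 of the 11 dose calls (Myh6, Lmod3 and Myom2). With limma on log2(TPM + 1), where TPM is the deposited transcripts-per-million level, only Tmod4 of the 19 model calls was kept and all 11 dose calls were, while the median of all genes moved by -0.07 and 0.17 in these comparisons. After rescaling TPM to protein-coding genes without mitochondrial ones, the counts kept were 9 of 19 and 2 of 11.

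By structure, the median change in the model was below that of all genes in each class and nearest to it in the Z-disc. Of all tested genes, 10.3% were called lower and 10.9% higher in this comparison. The median log2 fold change in HFpEF-Veh against Control-Veh was -0.57 over 9 thick filament genes, with 5 called lower and 0 higher. Over 11 thin filament genes it was -0.34, with 6 called lower and 2 higher. Over 14 Z-disc genes it was -0.07, with 3 called lower and 1 higher, which is the class nearest to the median of all genes. The Z-disc medians here include Ankrd1, which was listed at 0 in several libraries and is given no fold change below. The thick filament medians include Myl7, which was near the limit of detection (log2 fold change -1.75 in the model, not called). The order of the thick filament and M-band medians in the model is therefore uncertain. The M-band median was -0.46 over 3 genes with 1 called lower, and titin itself was called lower. After TYA-018 the medians against HFpEF-Veh were 0.27, 0.20, 0.13 and 0.08 in the same order. The genes called were 4, 4, 2 and 1, all higher, where 8.93% of all tested genes were called higher. In dosed hearts against control the medians were -0.16 for the thick filament, -0.01 for the thin filament, 0.01 for the Z-disc and -0.32 for the M-band, and titin was at -0.28. By library, T4 lay among the HFpEF-Veh values for the thick filament, and all dosed libraries lay below all controls for the M-band. These medians describe the classes and were not tested against each other.

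**Figure D2:**
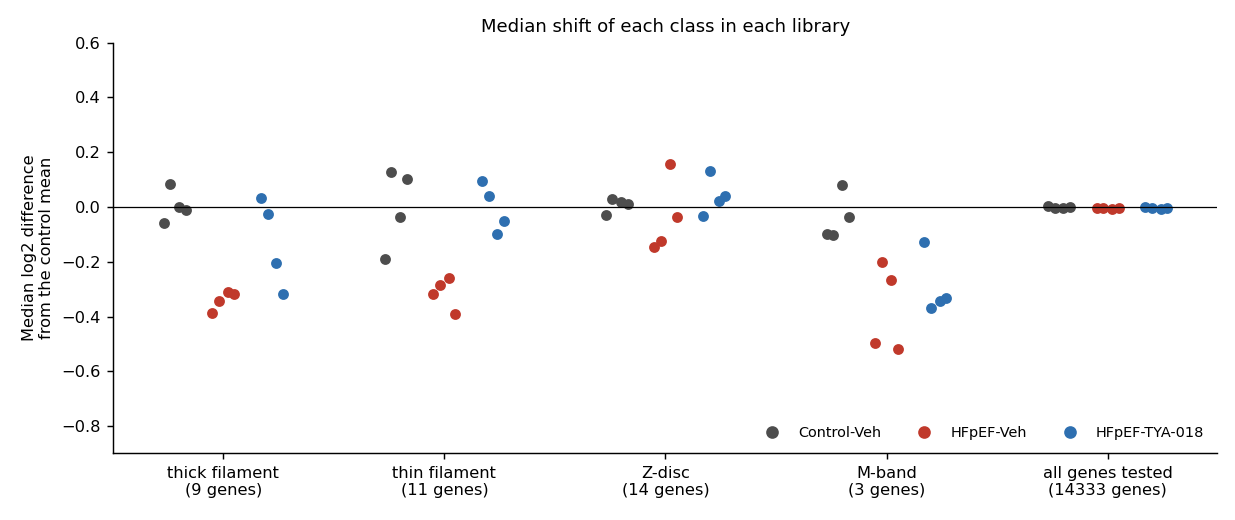
Median log2 difference from the control mean (vertical axis) over the tested genes of each class, one point per library, coloured by group. The 4 HFpEF-Veh libraries lie between -0.39 and -0.31 for the thick filament and between -0.39 and -0.26 for the thin filament, below all control libraries, whereas their Z-disc points lie between -0.15 and 0.16 and overlap with the controls. The points for all 14333 tested genes lie within 0.01 of 0.

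Promoter sequence is shown for 4 genes as examples, namely the actins Acta1 and Actc1 that rose in the model and Myh6 and Myl3 that fell in it. Each of them holds a marked match, whereas others of the list, such as Tmod4, Tnni3 and Des, hold none. Each run is the 250 bases before the annotated start in RefSeq on GRCm38.p6, read 5′ to 3′ on the strand of the gene. Capitals mark the CArG box, the element bound by serum response factor, and CATTCC on either strand, the core of the M-CAT element bound by TEAD factors. The CArG box was searched as CCWWWWWWGG, where W is A or T. Near matches, which the runs of Acta1 and Actc1 also hold, were neither marked nor counted.
Acta1 (chr8:123894776-123895025, minus strand): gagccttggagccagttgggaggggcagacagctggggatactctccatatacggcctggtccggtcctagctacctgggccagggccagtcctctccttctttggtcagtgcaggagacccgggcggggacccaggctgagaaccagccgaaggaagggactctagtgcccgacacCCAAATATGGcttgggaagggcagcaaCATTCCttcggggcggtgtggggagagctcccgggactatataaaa
Actc1 (chr2:114052876-114053125, minus strand): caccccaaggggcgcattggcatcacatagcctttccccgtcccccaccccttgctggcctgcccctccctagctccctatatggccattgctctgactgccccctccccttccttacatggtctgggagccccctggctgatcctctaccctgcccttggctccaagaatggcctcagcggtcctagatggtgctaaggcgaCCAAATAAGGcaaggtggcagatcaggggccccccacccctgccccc
Myl3 (chr9:110763428-110763677, plus strand): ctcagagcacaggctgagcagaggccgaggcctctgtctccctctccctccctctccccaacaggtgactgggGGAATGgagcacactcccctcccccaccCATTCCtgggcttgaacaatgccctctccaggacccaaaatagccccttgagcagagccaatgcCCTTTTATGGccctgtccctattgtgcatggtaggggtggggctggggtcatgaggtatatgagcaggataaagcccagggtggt
Myh6 (chr14:54966608-54966857, minus strand): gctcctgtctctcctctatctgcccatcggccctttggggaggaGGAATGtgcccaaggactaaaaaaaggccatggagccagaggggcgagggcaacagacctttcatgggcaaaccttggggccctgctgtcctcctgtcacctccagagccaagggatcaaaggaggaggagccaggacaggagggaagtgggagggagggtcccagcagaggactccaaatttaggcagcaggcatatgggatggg
Of the 39 genes 35 had at least 1 promoter in the table, with 49 promoters in all. A CArG box was found in 8 of the 49 promoters (16.3%) and in 1.47% of all 32851 promoters of that length. Both promoters of Ldb3 overlap and hold the same box, which is counted in each. The 7 genes that carry a CArG box in this exact form are Acta1, Actc1, Myl3, Myl7, Nebl, Ldb3 and Myom1. Among them 2 rose in the model (Acta1 and Actc1), 2 fell (Myl3 and Nebl) and 3 were not called. The M-CAT core was found in 14 of the 49 promoters (28.6%) and in 12.6% of all, and a MEF2 site, searched on both strands, in 7 of 49 (14.3%) and 2.92% of all. No matches of different motifs overlapped in these 49 promoters, and a match describes letters in the window, not binding.

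Among the thick filament genes, Myh6, the fast adult alpha-myosin heavy chain, fell in the model and was higher after the dose. It stood at 1111, 1441, 918 and 1089.6 CPM in the control libraries, at 705, 678, 528 and 633 CPM in the HFpEF-Veh libraries and at 1467, 1326, 1059 and 885 CPM in the HFpEF-TYA-018 libraries. Every HFpEF-Veh library lay below every library of both other groups. The log2 fold change was -0.84 ± 0.17 in HFpEF-Veh against Control-Veh (adjusted p = 0.00528, 0.558 times the control level), 0.90 ± 0.17 in HFpEF-TYA-018 against HFpEF-Veh (adjusted p = 0.00493) and 0.06 ± 0.17 against control (adjusted p = 0.888). Myh7, the slow beta-myosin heavy chain of the fetal ventricle, lies next to Myh6 on chromosome 14. Its levels were 161, 206, 193 and 125 CPM in the controls, 68.9, 278, 159.6 and 263 CPM in the HFpEF-Veh libraries and 136, 163, 144 and 169 CPM after TYA-018. V1 held the lowest Myh7 level of all libraries and V2 and V4 the highest, so the HFpEF-Veh group spanned both other groups, and no comparison was called (log2 fold change 0.17 ± 0.33 in the model and -0.33 ± 0.33 after the dose). Myh6 and Myh7 share 29.2% and 22.9% of their 31-base words with other genes, nearly all with each other, which leaves the split of reads between them uncertain. With both counts summed, an alternative added after the data were seen, the log2 fold changes were -0.66 (adjusted p = 0.0121) in the model and 0.69 (adjusted p = 0.0112) after the dose.

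The ventricular light chains were lower in the model as well. Myl2, the regulatory light chain, had the highest level per length of the 39 genes in control hearts, at 8434 ± 1201 TPM. In CPM it was at 6442, 11179, 8755 and 9344 in the controls, at 5800.1, 6626, 5488 and 6224 in the HFpEF-Veh and at 7155, 7438, 6239 and 6860.3 in the HFpEF-TYA-018 libraries. Control library C1 lay among the HFpEF-Veh values and the other 3 controls above all of them. It fell in the model (log2 fold change -0.57 ± 0.14, adjusted p = 0.0129) and was not called after the dose (0.20 ± 0.14, adjusted p = 0.334). Myl3, the essential light chain of the ventricle, stood at 2246, 4173, 2873 and 2787 CPM in the control libraries, at 1722, 2389, 1382 and 1507 CPM in the HFpEF-Veh libraries and at 2969, 2834, 2443 and 2364 CPM in the HFpEF-TYA-018 libraries. V2 overlapped with the lowest control and with T4, and the other HFpEF-Veh libraries lay below both groups. Its log2 fold change was -0.79 ± 0.20 in the model (adjusted p = 0.0151) and 0.60 ± 0.20 after the dose (adjusted p = 0.0499), the latter call being lost without any one of V1, V3, V4, T1, T2, T3 and T4 (adjusted p = 0.0552 to 0.13). The atrial and fetal light chains stayed low. Myl4 was at 2.52, 2.04, 2.21 and 2.58 CPM in the controls, at 2.29, 2.36, 2.37 and 1.77 CPM in the model and at 2.43, 2.28, 2.11 and 1.76 CPM after the dose. Myl7 was at 0.258, 0, 0.237 and 0.248 CPM, 0.0172, 0.0843, 0.0456 and 0.0694 CPM and 0.191, 0.216, 0.0865 and 0.0744 CPM in the same order, near the limit of detection. Neither was called in any comparison.

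Mybpc3, cardiac myosin-binding protein C, stood at 1940.3, 2306, 2329 and 2159 CPM in the control libraries, at 1665, 1716, 1848 and 1851 CPM in the HFpEF-Veh libraries and at 2265, 2302, 2444 and 2105 CPM in the HFpEF-TYA-018 libraries. The HFpEF-Veh libraries were the 4 lowest of the 12. It fell in the model (log2 fold change -0.30 ± 0.08, adjusted p = 0.0148) and was higher after TYA-018 (0.36 ± 0.08, adjusted p = 0.00722). Myh7b, a slow myosin gene related to Myh7, was at 116, 127, 116 and 137 CPM in control, 98, 60.8, 68.8 and 72.4 CPM in HFpEF-Veh and 69.1, 96.8, 92.7 and 48.8 CPM in HFpEF-TYA-018 libraries. Both HFpEF groups lay below all controls and overlapped with each other. It fell in the model (log2 fold change -0.73 ± 0.20, adjusted p = 0.0213), a call lost without any one of C4, V2, V3 and V4 (adjusted p = 0.0533 to 0.0602), was 0.03 ± 0.20 after the dose and -0.69 ± 0.20 against control (adjusted p = 0.0585). Mylk3, the kinase that phosphorylates Myl2 in the heart, was at 225, 194, 209 and 197 CPM, 174, 153, 195 and 184 CPM and 228, 205, 218 and 199 CPM in the 3 groups. All HFpEF-TYA-018 libraries lay above all HFpEF-Veh libraries, and Mylk3 was called in that comparison only (log2 fold change 0.27 ± 0.08, adjusted p = 0.0377). The call was lost without any one of V1, V2, V4, T1, T2 and T3 (adjusted p = 0.0612 to 0.109), and the difference between the comparisons was not tested.

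On the thin filament the 3 adult troponin subunits were lower in the model. Tnnt2, cardiac troponin T, which ties the troponin complex to tropomyosin, stood at 6932, 8417, 7567 and 8368 CPM in the control libraries, at 5425, 5443, 5518 and 5844 CPM in the HFpEF-Veh libraries and at 6460.1, 6442, 5934 and 6000.0 CPM in the HFpEF-TYA-018 libraries. The 3 groups did not overlap, with HFpEF-Veh lowest and the dosed group between. The log2 fold change was -0.49 ± 0.07 in the model (adjusted p = 0.00114), 0.16 ± 0.07 after the dose (adjusted p = 0.144) and -0.33 ± 0.07 in dosed hearts against control (adjusted p = 0.0234). The last call was lost without any one of C4, T2, T3 and T4 (adjusted p = 0.0526 to 0.071). Tnni3, cardiac troponin I, the inhibitory subunit, was at 3969, 6018, 4972 and 5722 CPM in the controls, at 3575, 3605, 3308 and 3649 CPM in HFpEF-Veh and at 4273, 4151, 3708 and 3918 CPM after TYA-018. HFpEF-Veh again held the 4 lowest libraries, and the dosed group overlapped only with C1 of the controls. Tnni3 fell in the model (log2 fold change -0.55 ± 0.11, adjusted p = 0.00568) and was not called in the other comparisons (0.18 ± 0.11 and -0.37 ± 0.11). Tnni1, its fetal and slow skeletal counterpart, was at 0.0814, 0.0323, 0.0473 and 0.263 CPM in the controls, 0.086, 0.202, 0.0608 and 0 CPM in HFpEF-Veh and 0.106, 0.0308, 0.101 and 0.0595 CPM after the dose, too low to be tested. Tnnc1, the calcium-binding subunit, was at 1603, 2866, 2213 and 2365 CPM, 1581, 1819, 1664 and 1688 CPM and 1832, 1965, 1824 and 1686 CPM in the 3 groups, with C1 among the HFpEF-Veh values. It fell in the model at log2 fold change -0.42 ± 0.14 (adjusted p = 0.0447), and the call was lost without any one of C2, C3, C4, V1, V2, V3 and V4 (adjusted p = 0.059 to 0.121).

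Both sarcomeric actins were called higher in the model, where 11 of the other 18 tested filament genes were called lower and 7 were not called. Acta1, skeletal alpha-actin, which the fetal heart also uses, stood at 48.3, 169, 135 and 83 CPM in the control libraries, at 161, 269.7, 276 and 201 CPM in the HFpEF-Veh libraries and at 169, 246, 268 and 146 CPM in the HFpEF-TYA-018 libraries. C1, C3 and C4 were the 3 lowest libraries, and C2 lay above V1 and T4. Acta1 rose in the model by 2.09 times (log2 fold change 1.06 ± 0.34, adjusted p = 0.0426), and was not called after the dose (-0.13 ± 0.33) or against control (0.93 ± 0.34, adjusted p = 0.126). The model call was lost without any one of C1, C3, C4, V2, V3 and V4 (adjusted p = 0.0519 to 0.113). V2, the library with the raised skeletal fibre genes, held the second highest of the HFpEF-Veh values, and without it the log2 fold change was 0.97 (adjusted p = 0.0923). Actc1, the adult cardiac alpha-actin, was at 4609, 5065, 6364 and 5868 CPM in the controls, 6381, 6284, 7478 and 7252 CPM in HFpEF-Veh and 7102, 7384, 7272 and 6660.1 CPM in HFpEF-TYA-018 libraries. C3 overlapped with the HFpEF-Veh group, and the dosed group lay above all controls. Actc1 rose in the model (log2 fold change 0.32 ± 0.10, adjusted p = 0.0391) and was also higher in dosed hearts than in controls (0.38 ± 0.10, adjusted p = 0.0486), while the dosed and vehicle groups differed by 0.05 ± 0.10 (adjusted p = 0.754). Its model call was lost without any one of C1, C2, C4, V3 and V4 (adjusted p = 0.0555 to 0.103) and the call against control without any one of C1, C2, C4, T1, T2, T3 and T4 (adjusted p = 0.0636 to 0.119). Fibroblast, endothelial and red cell markers, given further on, were higher in HFpEF-Veh too, and their part in the actin levels was not tested.

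Tpm1, the main cardiac tropomyosin, which lies along actin and blocks or frees the myosin sites, stood at 6468, 8047, 7106 and 7978 CPM in the control libraries, at 5916, 6162, 6151 and 6326 CPM in the HFpEF-Veh libraries and at 7682, 7792, 6884 and 7106 CPM in the HFpEF-TYA-018 libraries. The HFpEF-Veh libraries were the 4 lowest. Its log2 fold change was -0.27 ± 0.08 in the model (adjusted p = 0.0289, lost without any one of C2, C4, V1, V2 and V3 with adjusted p = 0.0528 to 0.0875) and 0.26 ± 0.08 after the dose (adjusted p = 0.0347, lost without any one of V1, V2, V3, V4, T1 and T2 with adjusted p = 0.0549 to 0.0987). Tpm2, the beta-tropomyosin, ranged from 25 to 43 CPM in the controls, 24.6 to 31.1 CPM in HFpEF-Veh and 23.8 to 36.5 CPM in the dosed group, and was not called. The tropomodulins cap the slow-growing end of the thin filament and the leiomodins nucleate and lengthen it. Tmod4, the skeletal tropomodulin, was at 16.1, 19.6, 16.4 and 18.6 CPM in the controls, at 10.8, 10.7, 10.6 and 11.2 CPM in HFpEF-Veh and at 16.9, 15, 14.8 and 15.4 CPM after the dose. The HFpEF-Veh values were close together and lay below both other groups. Tmod4 had the lowest adjusted p of the 38 genes in both comparisons with HFpEF-Veh, with log2 fold changes of -0.71 ± 0.07 in the model (adjusted p = 0.000412) and 0.52 ± 0.07 after the dose (adjusted p = 0.00141). Tmod1, the cardiac tropomodulin, was at 156, 156, 171 and 183 CPM, 153, 141, 165 and 164 CPM and 195, 186, 180.3 and 185 CPM in the same order of groups. The dosed group lay above all HFpEF-Veh libraries and overlapped with the controls. Only the dose comparison was called (log2 fold change 0.26 ± 0.07, adjusted p = 0.0238), and this was lost without any one of V1, V2, T1 and T2 (adjusted p = 0.0555 to 0.0689).

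Lmod3, a leiomodin best known from skeletal muscle, stood at 35.4, 41.8, 41.8 and 37.7 CPM in the control libraries, at 29, 26.3, 33.6 and 26.3 CPM in the HFpEF-Veh libraries and at 46.1, 44.2, 38.7 and 32.9 CPM in the HFpEF-TYA-018 libraries. All HFpEF-Veh libraries lay below all controls, and T4 was just below V3. Lmod3 fell in the model (log2 fold change -0.44 ± 0.11, adjusted p = 0.0159) and was higher after the dose (0.49 ± 0.11, adjusted p = 0.0114), with dosed and control hearts 0.05 ± 0.11 apart. Lmod2, the main cardiac leiomodin, ranged from 302 to 396 CPM in the controls, from 231 to 341 CPM in HFpEF-Veh and from 341 to 355 CPM in dosed hearts, and was not called. Per length it was far above Lmod3 in control hearts, at 143 ± 21.7 against 4.39 ± 0.427 TPM.

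**Figure D3:**
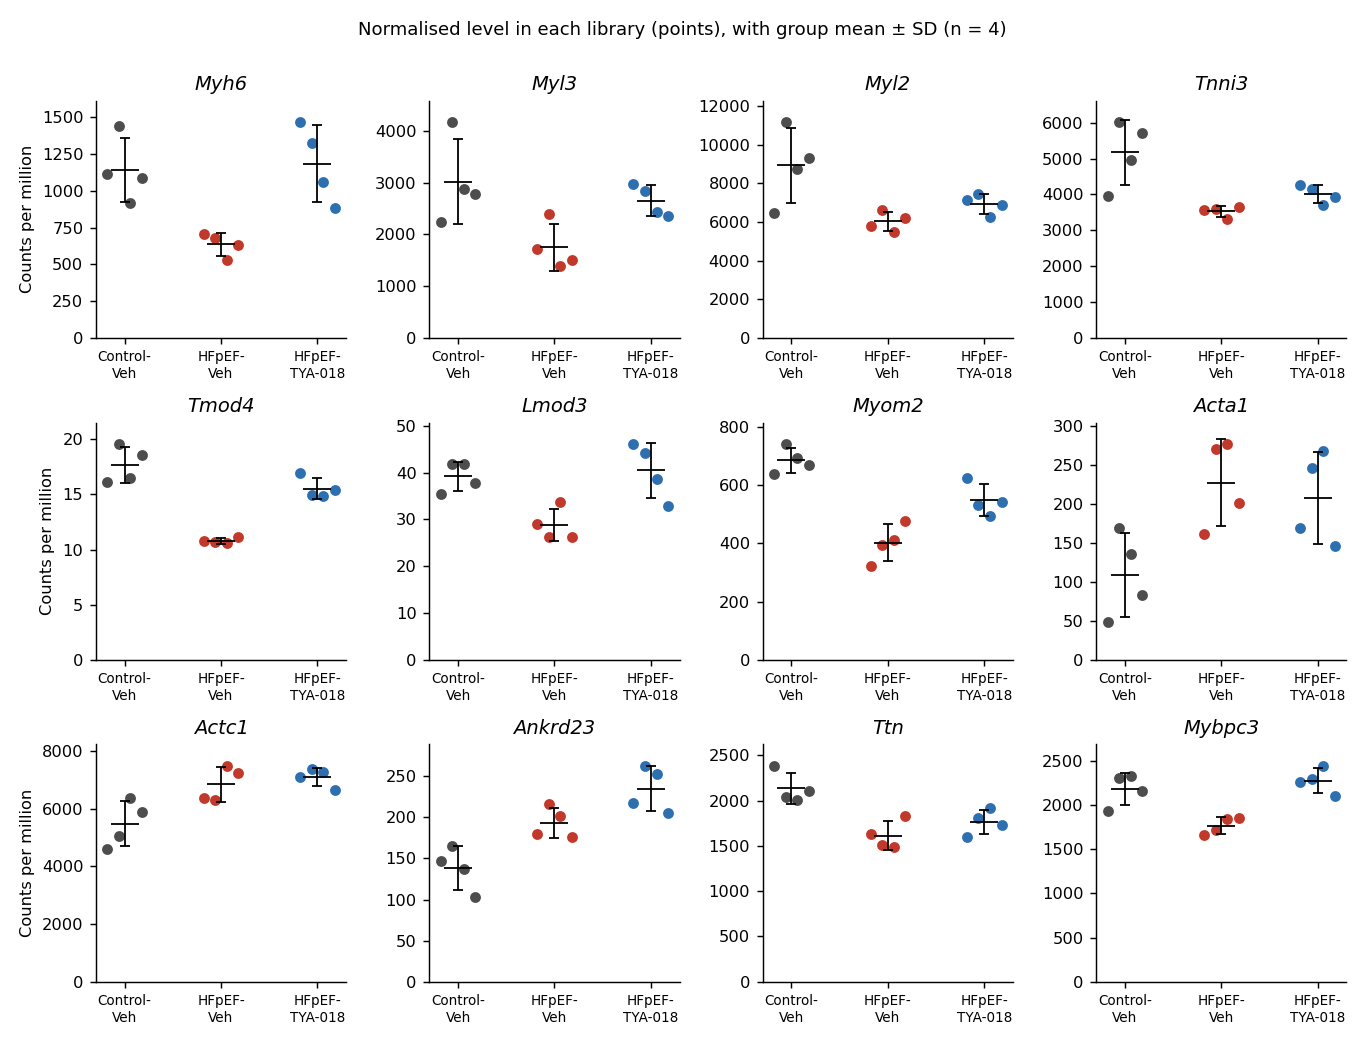
CPM in each library (points) with group mean and SD (n = 4) for 12 of the genes, each on its own vertical axis from 0. Myh6, Tmod4, Myom2 and Mybpc3 are lowest in every HFpEF-Veh library, Acta1 and Actc1 are higher in both HFpEF groups by their means, and Ankrd23 is lowest in the 4 controls.

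At the Z-disc the pattern was more mixed, with calls in both directions. Tcap, telethonin, which joins the ends of titin molecules at the Z-disc, was at 2349.6, 3421, 2666 and 3043 CPM in the controls, 1809, 2334, 1828 and 1997 CPM in HFpEF-Veh and 2446, 2314, 2000.2 and 2199 CPM after TYA-018. All HFpEF-Veh libraries lay below all controls, V2 only just, and overlapped with the dosed group. Tcap fell in the model (log2 fold change -0.53 ± 0.12, adjusted p = 0.0102) and was not called after the dose (0.17 ± 0.12). Nebl, nebulette, which links actin to the Z-disc, was at 89.4, 79.1, 88.4 and 86.4 CPM in the controls, 71.3, 65.8, 78.1 and 74.4 CPM in HFpEF-Veh and 73.3, 85.2, 90.6 and 80.7 CPM in the dosed group. The HFpEF-Veh libraries lay below all controls and overlapped with the dosed group. Nebl fell in the model (log2 fold change -0.25 ± 0.08, adjusted p = 0.038), a call lost without any one of C1, C3, C4, V1, V2 and V4 (adjusted p = 0.0603 to 0.101). Des, desmin, the intermediate filament that ties neighbouring Z-discs together, stood at 1256, 1529, 1375 and 1469 CPM in the control libraries, at 1047, 1194, 1203 and 1198 CPM in the HFpEF-Veh libraries and at 1444, 1397, 1370.0 and 1377 CPM in the HFpEF-TYA-018 libraries. V1 was lower than the other 3 HFpEF-Veh libraries, which lay close together, and all 4 lay below both other groups. Des fell in the model (log2 fold change -0.28 ± 0.07, adjusted p = 0.0187, lost without C4 with adjusted p = 0.0572) and was higher after the dose (0.27 ± 0.07, adjusted p = 0.0246, lost without any one of V1, T1 and T2 with adjusted p = 0.0592 to 0.0689). Actn2, alpha-actinin 2, which crosslinks the actin filaments of the Z-disc, was at 1044, 1036, 1102 and 1091 CPM, 892, 874, 1046 and 1019 CPM and 1205, 1190.4, 1152 and 1111 CPM in the 3 groups. The dosed libraries were the 4 highest, and Actn2 was called after the dose (log2 fold change 0.28 ± 0.07, adjusted p = 0.0162) but not in the model (-0.16 ± 0.07, adjusted p = 0.126).

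Ankrd23, a muscle ankyrin repeat protein that binds titin, was the 1 Z-disc gene called higher in the model. It stood at 147, 166, 137 and 103 CPM in the control libraries, at 179.9, 216, 201 and 176 CPM in the HFpEF-Veh libraries and at 217, 262, 253 and 206 CPM in the HFpEF-TYA-018 libraries. Both HFpEF groups lay above all controls, and the dosed group overlapped with the vehicle group at its lower end. The log2 fold change was 0.48 ± 0.13 in the model (adjusted p = 0.0236, lost without any one of C3, V2 and V3 with adjusted p = 0.0544 to 0.0621), 0.28 ± 0.13 after the dose (adjusted p = 0.165) and 0.76 ± 0.13 in dosed hearts against control (adjusted p = 0.00931). Ankrd23 shares 77.3% of its 31-base words with other genes, nearly all with Gm42417, so its level is uncertain. Ankrd1, its relative and a known stress-responsive gene of the heart, was listed at 0 in C1, C3, V1, V2 and T3. In the other libraries it was at 77.2 CPM in C2, 71.2 CPM in C4, 49.1 CPM in V3, 4.30 CPM in V4, 3.04 CPM in T1, 19.7 CPM in T2 and 2.98 CPM in T4. Libraries at exactly 0 occurred in every group. Whether these are failed estimates was not tested, and no fold change is given. None of the other Z-disc genes was called in any comparison. These are Ldb3, Myoz2, Csrp3, Xirp1, Xirp2, Flnc, Synpo2l and Pdlim5, whose model log2 fold changes lay between -0.24 ± 0.10 for Csrp3, a stretch-sensing LIM protein, and 0.30 ± 0.11 for Pdlim5, a PDZ and LIM domain scaffold. In control hearts Ldb3, which binds alpha-actinin, ranged from 486 to 551 CPM and Myoz2, a calcineurin-binding protein, from 519 to 709 CPM. The actin-binding Xin proteins Xirp1 and Xirp2 ranged from 102 to 115 and 183 to 224 CPM, the actin crosslinker Flnc from 152 to 173 CPM and Synpo2l from 62.5 to 66.5 CPM, and in each of these 6 genes the HFpEF-Veh libraries overlapped with the controls. Pdlim5 was at 292, 273, 305 and 283 CPM in the controls and 319, 325, 387 and 387 CPM in HFpEF-Veh, without overlap, at adjusted p = 0.0635.

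At the M-band, Myom2, which crosslinks neighbouring myosin filaments, stood at 639.7, 742, 695 and 668 CPM in the control libraries, at 322, 396, 412 and 478 CPM in the HFpEF-Veh libraries and at 626, 531, 495 and 544 CPM in the HFpEF-TYA-018 libraries. The 3 groups did not overlap, HFpEF-Veh being lowest and the controls highest. The log2 fold change was -0.77 ± 0.11 in the model (adjusted p = 0.00108), 0.45 ± 0.11 after the dose (adjusted p = 0.0161, lost without T1 with adjusted p = 0.0538) and -0.32 ± 0.11 against control (adjusted p = 0.111). Its paralogs Myom1 and Myom3 were not called. Myom1 ranged from 271 to 404 CPM in the controls and 301 to 495 CPM in HFpEF-Veh, at log2 fold change 0.19 ± 0.15, and Myom3, at most 2.48 CPM in any library, was at -0.46 ± 0.17 (adjusted p = 0.0669). Ttn, titin, was at 2380.4, 2042, 2008 and 2109 CPM in the controls, 1626, 1507, 1487 and 1829 CPM in HFpEF-Veh and 1595, 1803, 1914 and 1731 CPM in HFpEF-TYA-018. Both HFpEF groups lay below all controls and overlapped with each other. Ttn fell in the model (log2 fold change -0.40 ± 0.09, adjusted p = 0.00761) and was not called after the dose (0.13 ± 0.09) or against control (-0.28 ± 0.09, adjusted p = 0.0824).

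Shifts between adult and fetal, atrial or skeletal isoforms were examined as log2 ratios of counts within each library, which do not depend on how libraries were scaled. For 5 pairs and 3 comparisons, 15 exact two-sided permutation tests of the difference of group means were run, with 4 libraries a group, where the smallest p the design allows is 0.0286. None passed after adjustment over the 15, with the lowest adjusted p at 0.286, and 1 had a raw p under 0.05. With that floor, a ratio could pass the adjustment only if most of the 15 tests sat at the floor together. The tests therefore cannot decide whether isoforms shifted, and the ratios are given as description. Myh7 made up 11.7%, 12.1%, 16.2% and 9.60% of the summed TPM of Myh7 and Myh6 in the controls. It made up 8.19%, 27.5%, 20.4% and 26.0% in HFpEF-Veh and 8.02%, 10.3%, 11.2% and 15.1% in HFpEF-TYA-018 hearts. V2, V3 and V4 lay above all other libraries and V1 lay among the lowest. V2, which held the highest share, is the library with the raised fast skeletal fibre genes, and the part of skeletal muscle in its share was not tested. The Myh7/Myh6 ratio was 1.78 times the control ratio in the model (exact permutation p = 0.2, adjusted 0.429). After the dose it was 0.492 times the HFpEF-Veh ratio (exact permutation p = 0.114, adjusted 0.286).

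Acta1 made up 1.01%, 3.30%, 2.07% and 1.25% of the Acta1 and Actc1 TPM in the controls. The shares were 2.50%, 4.14%, 3.43% and 2.64% in HFpEF-Veh and 2.37%, 3.30%, 3.6% and 2.12% in dosed hearts, with C2 inside both HFpEF groups. The ratio differed from control by 0.85 on the log2 scale in the model (exact permutation p = 0.114, adjusted 0.286) and by 0.65 in dosed hearts (exact permutation p = 0.114, adjusted 0.286). Myl4 made up at most 0.315% of the Myl4 and Myl3 TPM in every library, and the ratio was 0.69 above control in the model (exact permutation p = 0.0571, adjusted 0.286). The Myl4/Myl3 ratio was the single one without overlap, lower in all dosed than in all HFpEF-Veh libraries, with a difference of -0.66 (exact permutation p = 0.0286, adjusted 0.286). In that pair Myl3 was called higher after the dose while Myl4 was not called. Counts of Tnni1 and Myl7 lay at or near 0, and the Tnni1/Tnni3 and Myl7/Myl2 ratios gave adjusted p between 0.286 and 1 in the exact permutation tests.

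**Figure D4:**
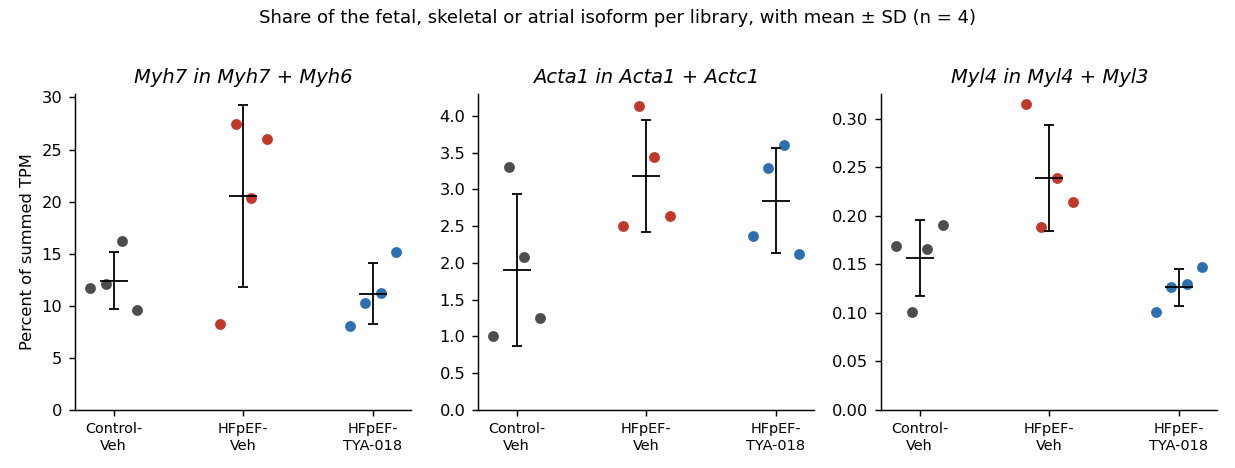
Share of Myh7, Acta1 and Myl4 in the summed TPM (percent, vertical axis) of their isoform pair in each library, with group mean and SD (n = 4). The Myh7 share is above 20% in 3 of 4 HFpEF-Veh libraries and 8.19% in the fourth, the Acta1 shares of the groups overlap, and the Myl4 shares of the 4 dosed libraries (0.101% to 0.148%) lie below those of HFpEF-Veh (0.188% to 0.315%) and overlap with the controls.

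Other sarcomere genes, 34 from the same structures and the chaperones and ligases that serve them, gave a split picture over the 33 tested. In the model 5 were called higher and 6 lower, where 10.9% and 10.3% of all tested genes were, with a median log2 fold change of 0.05. Those lower included Obsl1, Speg, Trim54, Fbxo32 and the slow skeletal troponin T gene Tnnt1 (log2 fold change -1.04 ± 0.11, adjusted p = 0.000412). Those higher included Tpm3, Tpm4 and Tmod3, which serve actin filaments outside the sarcomere as well, together with Fhl1 and Pdlim3. Tpm4 ranged over 93.3 to 99.5 CPM in the controls, 131 to 158 CPM in HFpEF-Veh and 80.7 to 109 CPM in dosed hearts, so that every HFpEF-Veh library was above all others. Its log2 fold change was 0.65 ± 0.09 in the model (adjusted p = 0.00106) and -0.65 ± 0.09 after the dose (adjusted p = 0.00144). Tmod3 was called in the same directions (0.50 ± 0.08 and -0.61 ± 0.08, adjusted p = 0.00238 and 0.0014), where its sarcomeric relative Tmod4 was lower and then higher.

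After the dose 8 of these 33 genes were called higher, where 8.93% of all tested genes were, and 3 lower, a share near the 10.4% of all tested genes, with a median of 0.16. Those higher included Obsl1, Nrap, Cmya5, the myosin chaperone Unc45b (0.38 ± 0.07, adjusted p = 0.00437), the muscle methyltransferase Smyd1, and the muscle ubiquitin ligase genes Trim63 (0.59 ± 0.11, adjusted p = 0.00508) and Fbxo32 (0.68 ± 0.10, adjusted p = 0.00189). Those lower were Tpm3, Tpm4 and Tmod3. Against control, Fhl2, Trim63 and Jph2 were higher in dosed hearts and Palld and Tnnt1 lower.

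Of 16 tested regulators of these genes, 1 was called higher and 1 lower in the model, smaller shares than the 10.9% and 10.3% of all tested genes, so that both are described as single genes. Srf, the factor that binds the CArG box, rose, the controls holding 27.1 to 32.5 CPM and the HFpEF-Veh libraries 34.5 to 48.9 CPM (log2 fold change 0.54 ± 0.10, adjusted p = 0.00291). It stood at 36.3 to 40.0 CPM in dosed hearts and was also higher there than in control (0.42 ± 0.10, adjusted p = 0.0288). Rbm20, the splicing factor known for its choice of titin exons, was at 112, 108, 114 and 128 CPM in the controls, 79.4, 70.4, 88 and 87.1 CPM in HFpEF-Veh and 116, 121, 111 and 93.2 CPM after TYA-018. It was lowest in all 4 HFpEF-Veh libraries and was called lower in the model (-0.51 ± 0.09, adjusted p = 0.00386) and higher after the dose (0.44 ± 0.09, adjusted p = 0.00887). Gata4, Nkx2-5 and Myocd, transcriptional activators of cardiac contractile genes, were also called higher after the dose, with Myocd at 0.52 ± 0.15 (adjusted p = 0.0281). With Rbm20 that made 4 of 16 called higher and 0 lower, where 8.93% and 10.4% of all tested genes were. Against control 1 regulator, Srf, was called higher and 1 lower, where 3.12% and 2.74% of all tested genes were. Exon use of Ttn was not measured by these gene-level values.

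Several markers of cell types differed in the same contrasts. Of all tested genes, 10.9% were called higher and 10.3% lower in the model, and 8.93% higher and 10.4% lower after the dose. The marker lists are short, so that a count of 1 describes a single gene and not a cell type. Ventricular cardiomyocyte markers outside the sarcomere summed to 12027 to 13925 CPM in the controls, 11116 to 12047 CPM in HFpEF-Veh and 14186 to 16666 CPM in dosed hearts. Of 8 tested, 3 (Pln, Ckm and Cacna1c) were called lower in the model, and 5 (Atp2a2, Pln, Mb, Ckm and Irx4) higher after the dose. Fibroblast markers summed to 344 to 502, 479 to 677 and 301 to 465 CPM in the same order of groups, with 2 of 4 called higher in the model and 3 lower after the dose. Endothelial markers summed to 435 to 553, 595 to 734 and 421 to 566 CPM, with 2 of 3 called higher and then 2 lower. Red cell genes summed to 1553 to 2309 CPM in the controls, 4785 to 14138 CPM in HFpEF-Veh and at most 3572 CPM in dosed hearts, with 5 of 5 called higher and then 5 lower. Of 5 smooth muscle markers edgeR called none in any comparison, with model log2 fold changes between -0.83 and 0.15, and with an unadjusted p under 0.05 for 2 in the model, 0 after the dose and 1 against control. Of 2 tested leukocyte markers Cd68 was called higher in the model, and the 1 fat marker tested was not called. Skeletal muscle markers summed to 31 to 37.1, 40.8 to 71.5 and 42.1 to 59.9 CPM, with Myl1, which takes most of this sum, the only 1 of 5 tested called higher in the model, and atrial markers gave 1 of 4 called lower. The part of these shifts in the levels of the sarcomere genes was not tested.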

How the data were processed

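Polyadenylated RNA of 12 left ventricles was made into stranded libraries. Per the study's methods, reads were trimmed with fastp and quantified with salmon (version 1.6.0 per the labels) against GENCODE mouse transcripts, and tximport summed them to genes. The labels name a human build, which cannot hold for mouse transcripts, and give another read length and layout than the methods. The authors deposited 3 tables, namely estimated counts, TPM and effective lengths, which are another kind of value, in bases. The deposited estimated counts were rounded, filtered with filterByExpr, scaled by TMM and tested across 12 libraries with edgeR 4.0.16 (R 4.3.3), adjusted by Benjamini-Hochberg. Counts had 9 residual degrees of freedom. DESeq2 1.42.0 and limma 3.58.1, the latter on the authors' TPM, served as alternatives, and the test code was checked on simulated data. Ratios used 0.5 added to each count. Shared sequence was measured as 31-base words in GENCODE M21 transcripts. The 39 genes and all lists were chosen with earlier results of these data known. Of the 39 genes, each one called in a comparison and both genes of each isoform pair are given in every library and the others by range, whereas genes of the other lists are given by counts with values for some. Each library is a separate animal by its number in the labels, and p-values measure the spread between these mice only. A gene of the list of other sarcomere genes is counted but not reported here by name.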

Additional observations from a re-analysis of the deposited data

Results flagged for a closer look

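In 119 checks of 4 libraries each, over single genes and isoform ratios within a group, 2 had 1 library further from the rest than Dixon's critical value allows, where chance alone would give about 1 in 20. Des in HFpEF-Veh library V1 was 1047 CPM, and the other 3 libraries lay between 1194 and 1203 CPM. Without V1 the model call of Des was kept and the dose call was lost. Myl4 in HFpEF-Veh library V4 was 1.77 CPM, and the other 3 lay between 2.29 and 2.37 CPM. Myl4 was not called in any comparison.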

How the results depend on the processing

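The 3 counts of called genes, 19 in the model, 11 after the dose and 3 in dosed hearts against control, depended on the processing. Scaling by DESeq2 size factors gave 19, 10 and 2, and the 8 libraries of a comparison alone gave 15, 12 and 1. Without the low-count filter, which tests more genes, they were 15, 8 and 1. DESeq2 called 21, 12 and 10, the last as 3 higher and 7 lower against 2 and 1 in edgeR. With effective lengths as an offset they were 10, 3 and 2. With limma they were 1, 16 and 0 on log2(TPM + 1), 2, 16 and 0 on log2(TPM + 0.1), which shifted the all-gene medians to -0.17, 0.34 and 0.17, and 9, 2 and 2 on rescaled protein-coding TPM, and the cause was not tested. Leaving out 1 library gave 12 to 18 calls in the model (12 without C4), 5 to 12 after the dose (5 without T1, 6 without V1 or T2) and 1 to 6 against control (6 without C1, 1 without C4, T2, T3 or T4). A group left with 3 libraries shares its spread with the others. Of the 33 single calls, none changed direction in 662 alternative fits, and 189 of these fits lost the call. The 15 isoform ratios stayed on the same side of the threshold in all 150 alternatives, which says little about how stable they are. Alternatives that left out 1 library could not cross it, because the smallest exact permutation p of 3 against 4 is 0.0571. The others, with 4 libraries a group, could hardly cross it after adjustment. No paired analysis was possible because the groups share no animal numbers. Depth limits Tnni1 and Myl7 most, with at most 0.263 CPM in any library.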
